A study of Gallus gallus with 14 samples.

Results

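Rab proteins are small GTPases that mark the membranes of the cell. Each switches between a GDP-bound form, carried in the cytosol by an escort protein, and a GTP-bound form that sits on a vesicle and recruits motors, tethers and coats. In the retinal pigment epithelium (RPE), the pigmented sheet behind the neural retina, Rab proteins are known for building and moving melanosomes, for taking up and degrading the shed tips of photoreceptors, and for delivering proteins to the apical or basal surface. The Rab genes were followed here through the embryonic maturation of the chicken RPE. They were taken as all probe sets whose only gene symbol in the supplied probe table is RAB followed by a digit, with the names of Rab regulators and effectors left out (RAB3GAP, RAB3IP, RAB3IL1, RAB11FIP and RAB8IP). The rule found 95 of 38535 probe sets, for 50 gene symbols, and did not use the measured signal.

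RPE sheets were dissected from chicken embryos at 4 ages, and their total RNA was hybridized to 14 Affymetrix arrays of the chicken genome. E7 and E18 (embryonic days 7 and 18) have 4 arrays each, and E10 and E14 have 3 each. The RNA of every array came from its own pool of 20 to 30 eyes, so the spread between arrays is that between pools and not between single embryos. The labels name no strain, sex or treatment. Values are normalized log2 signals, and a change is a log2 difference between age means ± its standard error (SE) from limma. A gene is said to have risen, fallen or changed only where its Benjamini-Hochberg adjusted p over all 23063 tested probe sets was under 0.05. The number of arrays per age limits the precision of every value. Signals of different probe sets are not on a common scale, so the levels of different genes are not ranked.

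All 10 RPE markers examined had tested probe sets. Between E7 and E18 4 of them rose (RPE65, TTR, RLBP1 and OTX2) and 2 fell, MITF (-0.65) and TYR (-0.19). RPE65, the visual cycle isomerase, ran from 8.79 to 9.70 at E7 and from 14.99 to 15.06 at E18. E7 replicates 1 and 2 and E18 replicates 2 and 3 stood apart from the rest on the second principal component (15.7% of the variance). The 9 arrays with an instrument file (E7 replicate 4, all of E10 and E14, and E18 replicates 1 and 4) shared 1 hybridization time. The other 5 have no such file, so their session is not known. They are called outside the shared session below only for lack of that file. In the shared session the fluidics station was 1 for E7 replicate 4 and E10 replicate 1. It was 3 for E14 replicate 3 and E18 replicates 1 and 4, and 2 for the rest. Station and age thus cannot be told apart there between E7 and E18. The 3′ to 5′ signal ratio of the actin control probe sets was 1.18 to 1.23 on E18 replicates 2 and 3, 1.25 to 1.30 on E7 replicates 1 and 2, and 1.36 to 1.73 on the other arrays. Markers of other cells were present. The summed signal of 7 tested photoreceptor genes was 644 to 989 at E7 and 1983 to 2610 at E18, and 3 of the 7 rose. They were PDE6G (2.57), GNGT2 (0.60) and GNAT2, which was dim at E7. PDE6B and ARR3, with negative changes, and SAG and GUCA1A, with positive ones, did not pass. PDE6C, GNAT1, GUCA1B and CNGA3 were dim. PDE6G was the largest part of that sum at E18. The sum of 6 erythrocyte genes was 6388 to 11263 at E7 and 4091 to 50838 at E18. At E18 replicates 1 and 4 were the high ones. CA13, dim at E7, was called higher, EPB41, HBE and HBZ fell, and HBA1 and HBAD did not pass. SLC4A1 was dim. HBA1 read 11.95 and 12.01 on E7 replicates 1 and 2, and 8.90 and 7.59 on E7 replicates 3 and 4. On E7 replicates 3 and 4 and at E10 the sum was mostly the signal of EPB41. For 5 macrophage and leukocyte genes the sum was 3890 to 4934 at E7 and 8195 to 9563 at E18, and 3 of the 5 rose. That sum was mostly the signal of CSF1R. C1QB and LAPTM5 did not pass, and PTPRC, SPI1, LYZ, MRC1 and TLR4 were dim. Among 5 endothelial genes 1 rose, CLDN5 (1.34), and the sum was 1980 to 2268 at E7 and 4057 to 4784 at E18. That sum was mostly the signal of CLDN5. PECAM1, VWF, ENG and ESAM did not pass, and CDH5, KDR, FLT1, TEK and TIE1 were dim. Of 10 genes of other retinal neurons and glia 1 rose and 3 fell, with overlapping sums. In a tissue sheet, fewer cells of a type and less RNA per cell cannot be told apart, and the part of other cells in the changes below was not tested.

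After the dimmest 40% of probe sets were left out, 42 Rab genes with 71 probe sets were tested, among 10206 genes. A Rab gene that is dim at some ages could pass this filter through its signal at another, as RAB40B and RAB10L did. The other 8 genes, RAB15, RAB17, RAB26, RAB33A, RAB36, RAB39A, RAB42 and RAB44, had all their probe sets under the limit of 6.20, with means of 4.86 to 6.16, and were not tested.

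Over the 4 ages 22 of the 42 Rab genes changed by the moderated F test, or 52.4%, beside 50.9% of all genes. Between E7 and E18 13 Rab genes rose (31%) and 10 fell (23.8%), while 21.6% of all tested genes rose and 26.7% fell. These shares lie near the background and are no result about the family. The rises count RAB40B and the falls RAB10L, which passed the filter through some ages only. The shares of all genes were taken after the same filter. The median change of the 42 genes was 0.03, against -0.05 for all genes. Rises and falls both occurred within every role that had more than 1 tested gene. Among genes above the dim limit of 6.20 at both ages, the rises were led by RAB19 and RAB20 and the falls by RAB34 and RAB7L1. Of the 23 called genes 12 changed by less than 1.5-fold (52.2%, beside 35.7% of all called genes) and 6 by at least 2-fold (26.1%, beside 33.2%), among them RAB40B and RAB10L, whose dim ages leave no exact size. The arrays of E7 and E18 did not overlap for 18 of the 23 (78.3%, beside 84% of all called genes), RAB40B and RAB10L again among them. These shares were not tested against each other. The direction of calls depended on scaling: with each array centred on its median in place of quantile normalization, 12 Rab genes rose and 4 fell, so that rises made up 75% of Rab calls and not 56.5%, and among all genes 58.3% and not 44.8%. That setting moved the median change of all genes to 0.06, and the deposited scale without further normalization moved it to -0.16. Without the 4 arrays that stood apart, RAB10L, RAB24, RAB40B, RAB41 and RAB9B lost their call, and RAB5C (0.24, adjusted p = 0.0254) and RAB8B (-0.27, adjusted p = 0.0133) gained one. On each of 13 alternative settings and without each array in turn, 8 genes kept their call. They were RAB19, RAB20, RAB32, RAB5B and RAB7A among the rises and RAB34, RAB38 and RAB7L1 among the falls. A setting in which a gene was not tested counted as a call not kept. The share of all called genes that kept their call was not counted, so the 8 are no result about the family. The fit on the 5 arrays outside the shared session was not among these settings, and there RAB5B and RAB7L1 lost their call.

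**Figure D1:**
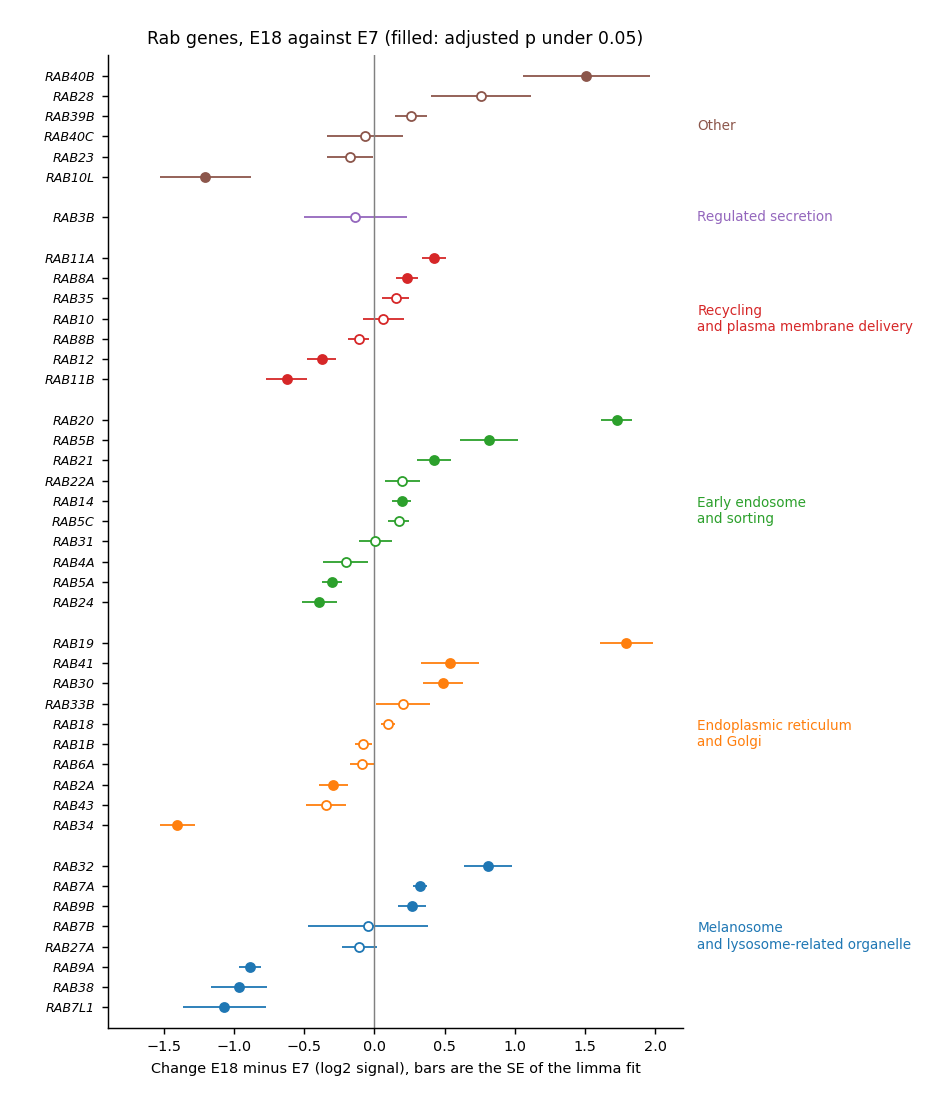
The change from E7 to E18 of each tested Rab gene (points, log2 signal; bars are the SE of the limma fit over 14 arrays) is grouped by the role of the protein, and filled points have an adjusted p under 0.05. Filled points lie on both sides of 0 in every group with more than 1 gene, from -1.40 for RAB34 to 1.79 for RAB19.

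Of the 8 tested genes for melanosomes, late endosomes and lysosome-related organelles, 3 rose (37.5%) and 3 fell (37.5%). Of all genes 21.6% rose and 26.7% fell, and counts in groups this small are no result about a role. The median change of the 8 was -0.08. The pair that directs melanin enzymes to the forming melanosome moved in opposite directions. RAB38, whose loss lightens the coat of the chocolate mouse, read 11.74, 11.94, 11.12 and 11.10 at E7, 11.11, 11.22 and 11.11 at E10, 10.73, 10.72 and 10.63 at E14, and 10.11, 10.73, 11.01 and 10.19 at E18. All E18 arrays lay below all E7 arrays, and the higher values at both ages came from the 4 arrays that stood apart. RAB38 fell by 0.97 ± 0.20 (adjusted p = 0.000966), a 1.95-fold drop, and by 0.96 without those 4 arrays.

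RAB32, its sister gene with an overlapping role in melanosome formation, read 9.92, 10.14, 9.66 and 9.48 at E7, 10.09, 10.11 and 9.92 at E10, 10.36, 10.20 and 10.31 at E14, and 10.40, 10.80, 11.06 and 10.19 at E18. The E18 arrays were all above the E7 arrays, although E18 replicate 4 exceeded the highest E7 array by little. RAB32 rose 1.75-fold, by 0.81 ± 0.17 (adjusted p = 0.00115).

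RAB27A, which tethers mature melanosomes to actin motors, read 13.12, 13.16, 12.58 and 12.95 at E7, 13.23, 13.00 and 12.97 at E10, 12.90, 12.77 and 12.88 at E14, and 12.63, 12.95, 13.12 and 12.68 at E18. E7 arrays overlapped those of every later age, and E14 arrays lay just under those of E10. Its change of -0.11 ± 0.12 did not pass the test (adjusted p = 0.533), and its sign was positive on the deposited scale (0.12), after median centring (0.33), for its other tested probe set (0.0071) and in the 5 arrays outside the shared session (0.08). In the shared session alone RAB27A fell by 0.30 (adjusted p = 0.0387), where E7 had 1 array that was assumed to vary like the others.

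RAB7A, which drives late endosomes, phagosomes and melanosomes to the lysosome, read 14.29, 14.30, 14.11 and 14.18 at E7, 14.34, 14.23 and 14.31 at E10, 14.41, 14.37 and 14.38 at E14, and 14.58, 14.57, 14.57 and 14.46 at E18. The E18 arrays lay above all arrays of the other ages. RAB7A rose 1.25-fold, by 0.33 ± 0.05 (adjusted p = 6.86e-05), and the rise from E14 to E18 was called on its own.

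RAB9A, which returns mannose 6-phosphate receptors from late endosomes to the Golgi, read 13.33, 13.40, 13.13 and 13.00 at E7, 12.69, 12.85 and 12.78 at E10, 12.79, 12.81 and 12.85 at E14, and 12.38, 12.35, 12.26 and 12.31 at E18. E7 arrays were the highest, E10 and E14 arrays overlapped, and E18 arrays were below all others. RAB9A fell by 0.89 ± 0.08 (adjusted p = 1.18e-07), a 1.85-fold drop, although after median centring the change was -0.46 with an adjusted p of 0.0818. The signal of its close relative RAB9B rose by 0.27 ± 0.10 (adjusted p = 0.0449), a call that was lost under 8 of the 13 alternatives and without any of 11 arrays.

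RAB7L1, the chicken symbol for the gene named RAB29 in mammals, encodes a Golgi and lysosome Rab that recruits the kinase LRRK2 in human cells. It read 9.13, 9.54, 8.86 and 9.69 at E7, 9.12, 8.36 and 8.25 at E10, 8.33, 8.29 and 7.78 at E14, and 7.87, 8.79, 8.81 and 7.48 at E18. E18 replicates 2 and 3 came close to the lowest E7 array, while replicates 1 and 4 were far below. RAB7L1 fell by 1.07 ± 0.30 (adjusted p = 0.00856), a 2.10-fold drop, but the size depended on the arrays: it fell by 2.02 in the shared session, and in the other 5 arrays the change was -0.38 (adjusted p = 0.219). RAB7B, which carries cargo from late endosomes to the Golgi, spread from 5.17 to 7.37 at E7 and its change of -0.04 ± 0.43 did not pass the test.

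**Figure D2:**
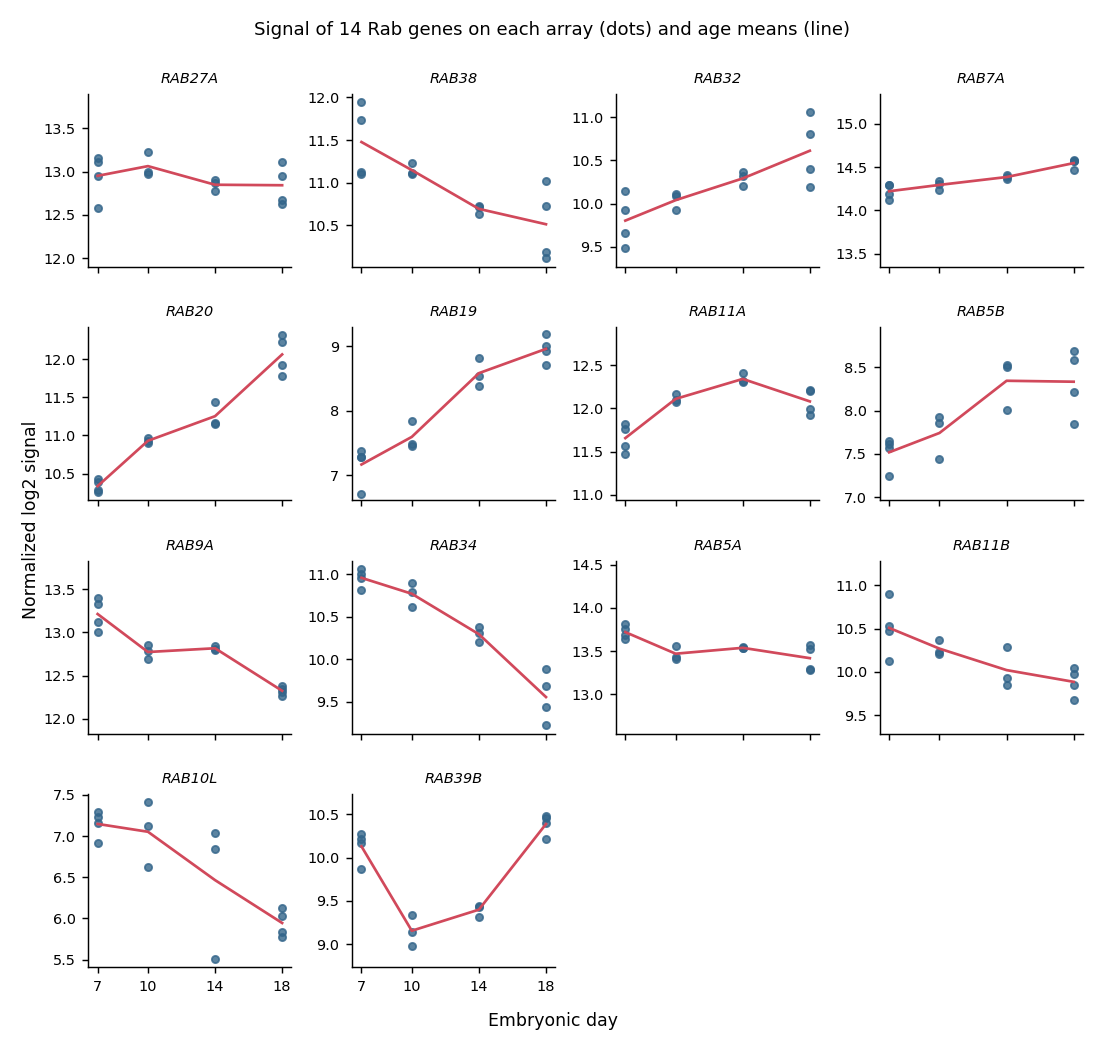
Normalized log2 signal of 14 Rab genes on each of 14 arrays (dots) against embryonic day, with the mean of each age as a line; every vertical axis spans at least 2 log2 units. RAB20 and RAB19 climb, RAB9A and RAB34 descend, RAB27A shows overlapping arrays at E7 and E18, and RAB39B dips at E10 and E14.

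Among 10 tested genes of the early endosome and sorting, 4 rose (40%) and 2 fell (20%), beside 21.6% and 26.7% of all genes. The median change of the 10 was 0.18. RAB20, which is found on endosomes and phagosomes and takes part in phagosome maturation, read 10.28, 10.25, 10.42 and 10.39 at E7, 10.93, 10.96 and 10.90 at E10, 11.44, 11.17 and 11.15 at E14, and 11.77, 12.23, 12.32 and 11.93 at E18. Its ages did not overlap at all, and each was above the one before. RAB20 rose 3.31-fold, by 1.73 ± 0.11 (adjusted p = 3.4e-09), the smallest adjusted p of the family, and by 1.44 without the 4 arrays that stood apart. RAB20 is also known in macrophages, and 3 of the 5 tested macrophage and leukocyte markers rose, as given above. The part of those cells was not tested.

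RAB5 proteins drive the fusion of early endosomes, and the 3 chicken genes behaved differently. RAB5B read 7.56, 7.24, 7.62 and 7.65 at E7, 7.45, 7.92 and 7.86 at E10, 8.51, 8.52 and 8.01 at E14, and 8.59, 7.84, 8.22 and 8.69 at E18. All E18 arrays exceeded all E7 arrays. RAB5B rose 1.76-fold, by 0.82 ± 0.21 (adjusted p = 0.00505), while in the 5 arrays outside the shared session its change of 0.56 did not pass (adjusted p = 0.124). RAB5A read 13.64, 13.68, 13.81 and 13.75 at E7, 13.56, 13.44 and 13.41 at E10, 13.53, 13.54 and 13.54 at E14, and 13.53, 13.28, 13.29 and 13.57 at E18. The E7 arrays were above those of all later ages, which overlapped. RAB5A fell by 0.30 ± 0.07 (adjusted p = 0.00226), a 1.23-fold drop that rests on the scaling: as deposited, the change was -0.05 (adjusted p = 0.649), and median centring gave 0.17 (adjusted p = 0.517). RAB5C changed by the F test over the ages (adjusted p = 0.0297) but its E18 value, 0.17 ± 0.07 above E7, did not pass (adjusted p = 0.0782). It was called higher with median-centred arrays (0.51, adjusted p = 0.0345), with the deposited values (0.30, adjusted p = 0.00706) and without the 4 arrays that stood apart, as given above.

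Among the other early endosome genes RAB21, which carries integrins inward, rose by 0.42 ± 0.12 (adjusted p = 0.0115), and its E18 arrays split into 11.22 and 11.37 on replicates 2 and 3 and 10.75 and 10.82 on replicates 1 and 4. RAB14, which works between the Golgi and endosomes, rose by 0.19 ± 0.07 (adjusted p = 0.0297). That call was kept under only 8 of the 13 alternatives and was lost without any of 4 arrays (E7 replicates 3 and 4, E18 replicates 2 and 3). The other tested probe set of RAB14 gave 0.11 (adjusted p = 0.57). RAB24, linked to autophagy, fell by 0.39 ± 0.12 (adjusted p = 0.0187), a call lost under 4 of the 13 alternatives, among them the shared session (-0.18, adjusted p = 0.489), and without E7 replicate 2, E7 replicate 3 or E18 replicate 1. The changes of RAB4A, a rapid recycling Rab (-0.20), RAB22A (0.20) and RAB31 (0.01), both of sorting endosomes, did not pass, although RAB4A was called lower on the deposited scale (-0.46, adjusted p = 0.0433).

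Of 10 tested genes of the endoplasmic reticulum and Golgi, 3 rose (30%) and 2 fell (20%), beside 21.6% and 26.7% of all genes. The median change of the 10 was 0.01. The family's largest rise and its largest fall were both here. RAB19, a Golgi Rab that takes part in forming the primary cilium in mammalian cells, read 7.28, 7.29, 7.38 and 6.71 at E7, 7.46, 7.48 and 7.84 at E10, 8.82, 8.53 and 8.38 at E14, and 8.93, 9.20, 9.0 and 8.70 at E18. E7 and E10 arrays were low and E14 and E18 arrays high, with no overlap between these sets. RAB19 rose 3.47-fold, by 1.79 ± 0.19 (adjusted p = 9.23e-07).

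RAB34, known for positioning lysosomes and for an early step of cilium formation in mammalian cells, read 11.00, 10.96, 11.06 and 10.81 at E7, 10.90, 10.79 and 10.62 at E10, 10.38, 10.21 and 10.31 at E14, and 9.68, 9.22, 9.43 and 9.88 at E18. E7 and E10 overlapped, E14 was below both and E18 below E14. RAB34 fell by 1.40 ± 0.13 (adjusted p = 1.62e-07), a 2.65-fold drop, and by 1.16 without the 4 arrays that stood apart.

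The other Golgi calls were smaller. RAB30 rose by 0.49 ± 0.14 (adjusted p = 0.0112), a call lost on the deposited scale and after median centring. RAB41 rose by 0.54 ± 0.21 (adjusted p = 0.0481), and lost the call without any of 11 of the 14 arrays and under 7 of the 13 alternatives; its probe sets carry 2 gene identifiers in the probe table. RAB2A, which acts between the Golgi and the endoplasmic reticulum, fell by 0.29 ± 0.10 (adjusted p = 0.0317), a call lost under 7 of the 13 alternatives and without any of 5 arrays (E7 replicates 3 and 4, E18 replicates 2, 3 and 4). Its change was -0.055 on the deposited scale and turned to 0.16 after median centring. The changes of RAB1B (-0.08), needed for transport from the endoplasmic reticulum, of RAB6A (-0.09), a Golgi Rab, of RAB18 (0.10), found on lipid droplets, and of RAB33B (0.20), which binds an autophagy factor, did not pass. Scaling bore on 2 of them, since RAB18 was called higher with median-centred arrays (0.51, adjusted p = 0.0264) and with the deposited values (0.29, adjusted p = 0.00102). RAB1B turned to 0.41 with median-centred arrays (adjusted p = 0.0623) and to 0.20 with the deposited values, where it was called higher (adjusted p = 0.0346). For RAB6A median centring gave 0.14. RAB43, a Golgi Rab, did not pass over the whole span (-0.34, adjusted p = 0.0631; -0.46 and 0.0133 on the deposited scale) but fell between E14 and E18.

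Recycling and delivery to the plasma membrane set which proteins an epithelium keeps at each surface. Of the 7 tested genes of this role 2 rose (28.6%) and 2 fell (28.6%), beside 21.6% and 26.7% of all genes. The median change of the 7 was 0.06. RAB11A, the main Rab of recycling endosomes, read 11.47, 11.57, 11.82 and 11.76 at E7, 12.16, 12.09 and 12.07 at E10, 12.31, 12.30 and 12.41 at E14, and 12.21, 11.99, 11.93 and 12.20 at E18. The E7 arrays were below all others, and E14 arrays were the highest. RAB11A rose 1.34-fold, by 0.42 ± 0.09 (adjusted p = 0.0009), but its other tested probe set gave 0.12 (adjusted p = 0.493), and in the 5 arrays outside the shared session the change of 0.33 had an adjusted p of 0.0604.

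RAB11B, another recycling isoform, read 10.47, 10.90, 10.13 and 10.53 at E7, 10.23, 10.21 and 10.37 at E10, 9.85, 10.29 and 9.93 at E14, and 9.97, 10.04, 9.85 and 9.67 at E18. E7 replicate 3 came nearest to the E18 arrays, without overlap. RAB11B fell by 0.62 ± 0.15 (adjusted p = 0.00267), a 1.54-fold drop, and its change was -0.48 after median centring (adjusted p = 0.075) and -0.55 in the 5 arrays outside the shared session (adjusted p = 0.0803).

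RAB8A, which delivers vesicles to the apical surface and the cilium, rose by 0.23 ± 0.08 (adjusted p = 0.0252) on its brightest probe set, while the other bright one gave -0.10 (adjusted p = 0.619). The call was lost without E7 replicate 3 or E18 replicate 1. For RAB8B the brightest probe set gave -0.11 (adjusted p = 0.253) and 2 dimmer ones gave 0.50 (adjusted p = 0.0207) and 0.47 (adjusted p = 0.0489). The direction of this pair thus differed with the probe set. The brightest RAB8B probe set was called lower without the 4 arrays that stood apart, and turned to 0.0062 on the deposited scale and 0.22 after median centring. RAB12, which sends transferrin receptor to degradation, fell by 0.38 ± 0.10 (adjusted p = 0.00698), a call lost after median centring. RAB35, a fast recycling Rab, did not pass (0.15). RAB10, which carries cargo to the basolateral membrane in epithelial cells, had a change of 0.06 (adjusted p = 0.778) over all arrays. The shared session alone, where E7 was a lone array, gave 0.56, and the other 5 arrays gave -0.28 (adjusted p = 0.116).

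RAB3B, the only tested Rab of regulated secretion, spread from 4.76 to 7.25 over all arrays, and its change of -0.13 ± 0.37 did not pass.

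Among the 6 genes outside these roles 1 was called higher (16.7%) and 1 lower (16.7%), beside 21.6% and 26.7% of all genes. The first was RAB40B, which passed the filter through E18 alone, and the second RAB10L. RAB39B, a Rab of neurons whose human gene is mutated in intellectual disability, had a course of its own. It read 9.87, 10.27, 10.21 and 10.17 at E7, 9.14, 8.98 and 9.34 at E10, 9.44, 9.43 and 9.32 at E14, and 10.22, 10.45, 10.40 and 10.49 at E18. All arrays of the middle ages were below all arrays of E7 and E18, which overlapped each other. RAB39B fell by 0.98 from E7 to E10 (adjusted p = 6.46e-05) and rose by 0.99 from E14 to E18 (adjusted p = 2.83e-05), and E18 against E7 did not pass (0.26, adjusted p = 0.0848). SOX10, a transcription factor of neural crest and pigment cells, had a dip at the same ages, from 12.42 to 12.60 at E7, 11.24 to 11.37 at E10, 11.61 to 11.69 at E14 and 12.36 to 12.77 at E18. The other tested neural crest and melanocyte genes differed. EDNRB rose by 2.31 from E7 to E10 and fell by 1.46 from E14 to E18. PMP22 fell by 1.86 over the whole span, and EDNRB2 did not pass in any interval (-1.59 from E7 to E10, adjusted p = 0.0524). With EDNRB in it, the summed signal of the 4 genes did not dip at E10. It was 7935 to 8110 at E7, 8932 to 10132 at E10, 7545 to 8089 at E14 and 7057 to 8816 at E18. Of the 10 tested genes of other retinal neurons and glia, ELAVL4 and SYP fell from E7 to E10 (-0.97 and -1.68). Both fell again from E14 to E18 (-1.22 and -0.74). PROX1 rose from E14 to E18 (1.28), with a change of 0.07 from E7 to E10 that did not pass. The part of neurons, neural crest cells and melanocytes in the course of RAB39B was not tested.

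RAB10L read 7.29, 7.23, 7.15 and 6.91 at E7, 6.63, 7.41 and 7.12 at E10, 6.85, 7.04 and 5.51 at E14, and 6.03, 5.78, 5.84 and 6.13 at E18. The E18 arrays were below all E7 arrays and under the limit for dim probe sets. RAB10L fell by 1.20 ± 0.32 (adjusted p = 0.00673), and the change was -0.81 in the shared session (adjusted p = 0.359) and -0.94 without the 4 arrays that stood apart (adjusted p = 0.166). RAB40B, which directs a ubiquitin ligase complex, ran from 5.03 to 6.56 at E7 and from 7.06 to 7.28 at E18. Its means at E7, E10 and E14 (5.66, 5.94 and 5.91) were under the limit, and it passed the filter through E18 alone, so a difference was built into its selection. The fit gave 1.51 ± 0.45 (adjusted p = 0.0137). RAB40B was not tested under 5 of the 13 alternatives or without 8 of the 14 arrays, and the call was lost without the 4 arrays (1.10, adjusted p = 0.235). The sizes for RAB10L and RAB40B depend on the pseudocount, since a mean at E7 or E18 lay under the limit. RAB28, mutated in human cone-rod dystrophy, had a change of 0.76 ± 0.36 that did not pass, and E7 replicate 1, at 6.79, and replicate 2, at 7.63, were its lowest arrays. RAB23, a brake on Hedgehog signalling (-0.17), and RAB40C, the close relative of RAB40B (-0.06), did not pass, although RAB23 was called lower on the deposited scale (-0.46, adjusted p = 0.036).

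The adjacent intervals held few calls. From E7 to E10 2 Rab genes rose and 3 fell, or 4.76% and 7.14% of the 42, beside 8.78% and 8.08% of all genes. The rises were RAB20 (0.59 ± 0.12, adjusted p = 0.00327) and RAB11A (0.45 ± 0.09, adjusted p = 0.0041). RAB39B, RAB9A (-0.44) and RAB5A (-0.25) fell. From E10 to E14 RAB19 rose by 0.99 ± 0.22 (adjusted p = 0.0107) and no Rab gene was called lower by limma, where 4.65% and 2.79% of all genes rose and fell. The call of RAB19 was lost without E10 replicate 1 or without E14 replicate 1. When E10 and E14 were fitted alone 6 Rab genes were called, and the share of all genes in that fit was not counted. From E14 to E18 4 Rab genes rose and 3 fell (9.52% and 7.14%), beside 9.79% and 15.1% of all genes. RAB39B, RAB20 (0.81 ± 0.12, adjusted p = 0.000141), RAB21 (0.41) and RAB7A (0.16) rose. RAB34 (-0.74), RAB43 (-0.56) and RAB9A (-0.49) fell. Of the 23 genes called between E7 and E18, 15 were called in no adjacent interval (65.2%, beside 37.2% of all called genes, with no test of the difference). RAB39B and RAB43 were called in an interval and not over the whole span.

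**Figure D3:**
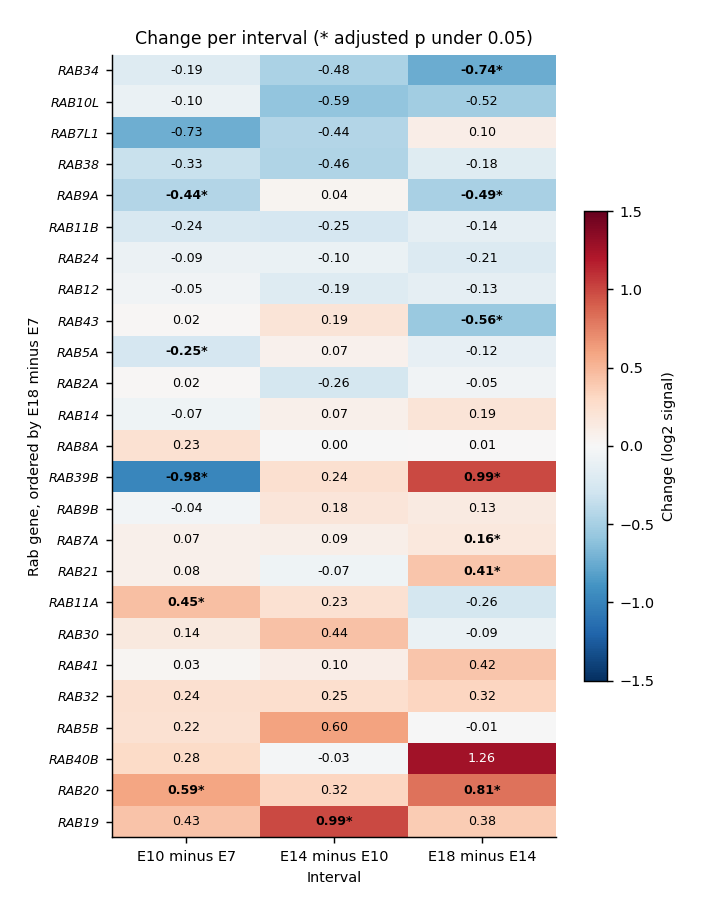
Change in log2 signal in each interval for the 25 Rab genes called in at least 1 of the 4 contrasts, with red for rises, blue for falls and an asterisk for an adjusted p under 0.05. RAB39B falls by 0.98 and rises by 0.99, RAB20 is called in the first and last intervals, and RAB19 alone is called in the middle one.

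Pairs of Rab genes were then set against each other as the ratio of their signals on each array relative to the E7 mean, which shows unequal change and is free of each array's overall scale on the deposited values. The 12 pairs are those tested genes that share a number, with RAB32 and RAB38 added, and they were chosen after values had been seen, so they are described with no test, and ± is the SE from the 4 arrays of each of the 2 ages. The ratio of RAB32 to RAB38 ran from -0.14 to 0.22 at E7 and from 1.67 to 1.96 at E18, with means of 0.57 at E10 and 1.27 at E14. Its 4 ages climbed in order with a change of 1.77 ± 0.11 by E18, a 3.42-fold shift, and the value was 1.76 in the shared session, 1.75 in the other arrays and 1.67 on the deposited scale. The split among the E18 arrays that both genes showed singly was thus nearly absent from their ratio.

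The ratio of RAB9A to RAB9B went the other way, with E18 arrays between -1.22 and -1.12, a change of -1.15 ± 0.13 and -0.78 on the deposited scale. RAB11A over RAB11B shifted by 1.05 ± 0.25, with E7 arrays from -0.48 to 0.54 and E18 arrays from 0.80 to 1.38, and by 1.26 on the deposited scale. This shift rests on the brighter RAB11A probe set. RAB5A over RAB5B shifted by -1.12 ± 0.15 and RAB5A over RAB5C by -0.47 ± 0.06, where the deposited scale gave -0.61 and -0.35. RAB7A over RAB7L1, which share a number by their symbols only, shifted by 1.39 ± 0.36, but by 2.36 in the shared session and 0.71 in the other arrays.

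**Figure D4:**
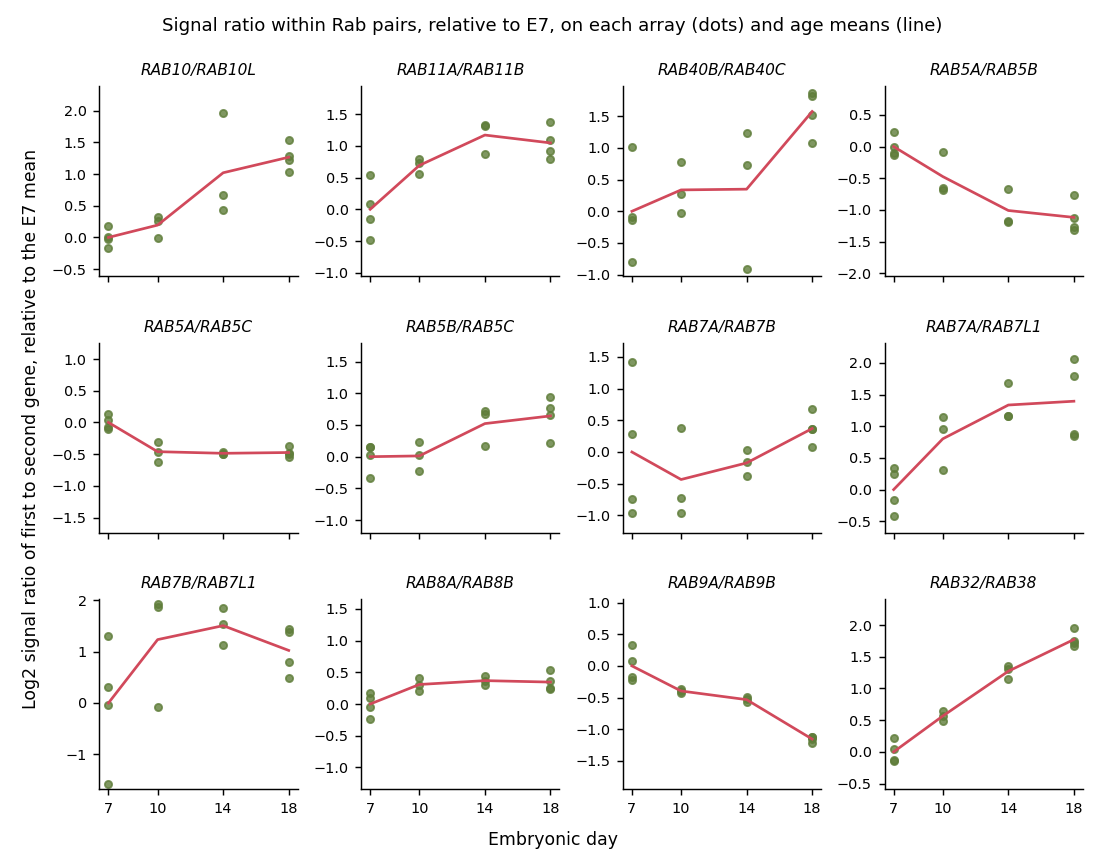
Log2 ratio of the signals of 12 Rab pairs on each array (dots), relative to the mean of E7, against embryonic day, with age means as lines. For RAB32/RAB38 the E18 arrays sit between 1.67 and 1.96 and for RAB9A/RAB9B between -1.22 and -1.12, while for RAB7A/RAB7B the E7 arrays spread from -0.96 to 1.42.

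The proteins that run the Rab cycle were followed in 4 lists. Of 9 listed carriers and chaperones 3 had a probe set and were tested. RABGGTB, the catalytic subunit of the enzyme that attaches the lipid tail of Rab proteins, fell by 0.81 ± 0.17 (adjusted p = 0.000842). CHM, the escort protein that presents them to that enzyme and is lost in choroideremia, a degeneration of the RPE and its neighbours, read 10.89, 10.90, 11.36 and 11.06 at E7, 11.14, 11.30 and 11.14 at E10, 10.95, 10.74 and 10.91 at E14, and 10.66, 10.52, 10.49 and 10.78 at E18. Its E18 arrays were below all E7 arrays, and it fell by 0.44 ± 0.11 (adjusted p = 0.00354). RABIF, a chaperone of nucleotide-free Rab proteins, did not pass (-0.36). After median centring neither fall was called (CHM -0.23, RABGGTB -0.57).

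Among 46 tested exchange factors and GTPase-activating proteins, which switch Rab proteins on and off, 10 rose (21.7%) and 9 fell (19.6%), beside 21.6% and 26.7% of all genes, with a median change of 0.01. MADD, an exchange factor for RAB3 and RAB27 proteins, read 12.10 to 12.45 at E7 and 13.39 to 13.53 at E18 and rose by 1.20 ± 0.08 (adjusted p = 5.93e-09). HPS1, a subunit of the BLOC-3 complex that activates RAB32 and RAB38, rose by 0.76 ± 0.14 (adjusted p = 0.000315). MON1A and CCZ1, which together activate RAB7, rose by 1.01 ± 0.16 and 0.34 ± 0.07, and without the 4 arrays that stood apart CCZ1 rose by 0.18. Its call was lost in the shared session (0.20, adjusted p = 0.0674). SGSM2, a GTPase-activating protein for RAB32, also rose, by 1.12 ± 0.21 (adjusted p = 0.000441). Among the falls were TBC1D2 (-1.61 ± 0.21, adjusted p = 9.6e-06) and TBC1D15 (-0.71 ± 0.09), which inactivate RAB7, while the change of TBC1D5, which also acts on RAB7, did not pass (-0.06, adjusted p = 0.892). In the shared session TBC1D2 fell by 0.82. RAB3IP and RAB3IL1, exchange factors for RAB8, fell by 0.92 ± 0.07 and 0.84 ± 0.10, and DENND1A, which activates RAB35, fell by 0.74 ± 0.13. HPS4, the partner of HPS1, had only dim probe sets.

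Of 53 tested effectors 16 rose (30.2%) and 7 fell (13.2%), beside 21.6% and 26.7% of all genes, with a median change of 0.07. SYTL2, a RAB27 effector that docks vesicles at the membrane, read 5.87 to 6.38 at E7, 6.52 to 6.97 at E10, 6.87 to 7.47 at E14 and 8.14 to 8.40 at E18. Its E18 arrays exceeded all others, and it rose (2.16 ± 0.22 in the fit, adjusted p = 6.91e-07). Its E7 mean of 6.10 was under the dim limit, so this size depends on the pseudocount and is not ranked. RABEP1, which binds RAB5 and RAB4 on early endosomes, rose by 1.38 ± 0.06 (adjusted p = 5.63e-11), from 10.90 to 11.09 at E7 to 12.36 to 12.41 at E18. RIMS2 and RIMS1, RAB3 effectors of synaptic release sites, rose by 2.00 ± 0.29 and 1.02 ± 0.09, beside the photoreceptor markers given above. Of the synaptic genes among the markers of other retinal neurons, SYP (-2.22) and SNAP25 (-1.18) fell, and SYT1 (0.12) and STX1A (0.22) did not pass. The part of photoreceptors and other neurons was not tested. OPTN, which links RAB8 to myosin VI, and RAB11FIP2, a RAB11 adaptor, rose by 0.58 ± 0.09 and 0.55 ± 0.06. Of the 6 tested subunits of the HOPS tether that RAB7 uses at the lysosome, VPS11, VPS16, VPS18 and VPS41 fell by 0.90 ± 0.11, 0.36 ± 0.10, 0.68 ± 0.19 and 0.54 ± 0.09. VPS39 (0.08, adjusted p = 0.508) and VPS33A (-0.31, adjusted p = 0.147) did not pass. Without the 4 arrays that stood apart the call of VPS18 was lost (-0.36, adjusted p = 0.212) and VPS33A was called lower (-0.38, adjusted p = 0.0279). In the shared session VPS16 (adjusted p = 0.137) and VPS18 (adjusted p = 0.19) lost their calls. The motors MYO5A (0.07) and MYO7A (0.02), which carry melanosomes, did not pass, although without those 4 arrays MYO7A was called higher (0.33, adjusted p = 0.0492), and MLPH, the link between RAB27A and MYO5A, was dim. Median centring left 4 effectors called lower, without VPS16, VPS41 and RILPL2.

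Of 22 tested genes of the BLOC and adaptor complexes and of melanosome cargo sorting, 6 rose (27.3%) and 8 fell (36.4%), beside 21.6% and 26.7% of all genes, with a median change of -0.01. DTNBP1, the dysbindin subunit of BLOC-1, read 11.12, 11.24, 11.50 and 11.32 at E7, 11.80, 12.00 and 12.01 at E10, 12.43, 12.41 and 12.50 at E14, and 12.97, 13.08, 13.06 and 12.94 at E18. Its ages did not overlap and climbed in order, and it rose by 1.72 ± 0.08 (adjusted p = 8.59e-11). MREG, a regulator of melanosome and phagosome traffic, rose by 1.41 ± 0.19. AP1S3, a small subunit of the AP-1 coat, fell by 1.57 ± 0.14 (adjusted p = 1.14e-07). The AP-3 coat, which sorts melanosome cargo, split: its subunit AP3M1 rose by 0.56 ± 0.10, while AP3B1 and AP3S1 fell by 0.55 ± 0.08 and 0.45 ± 0.07. Of the 8 falls 3 were called after median centring, where the changes of AP3B1 (-0.34) and AP3S1 (0.02) did not pass. Without the 4 arrays that stood apart 4 of this list rose and 8 fell. HPS3 did not pass over all arrays (0.13, adjusted p = 0.4555), and is among the 8 falls of that fit (-2.06, adjusted p = 2.5e-05). The shared session, where E7 was a lone array, gave -1.84. The brightest probe set was chosen anew in each fit, so the HPS3 values may come from different probe sets. They are thus not read as an effect of leaving out arrays. MREG rose by 0.93 without those 4 arrays, and its change was 0.86 in the shared session.

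**Figure D5:**
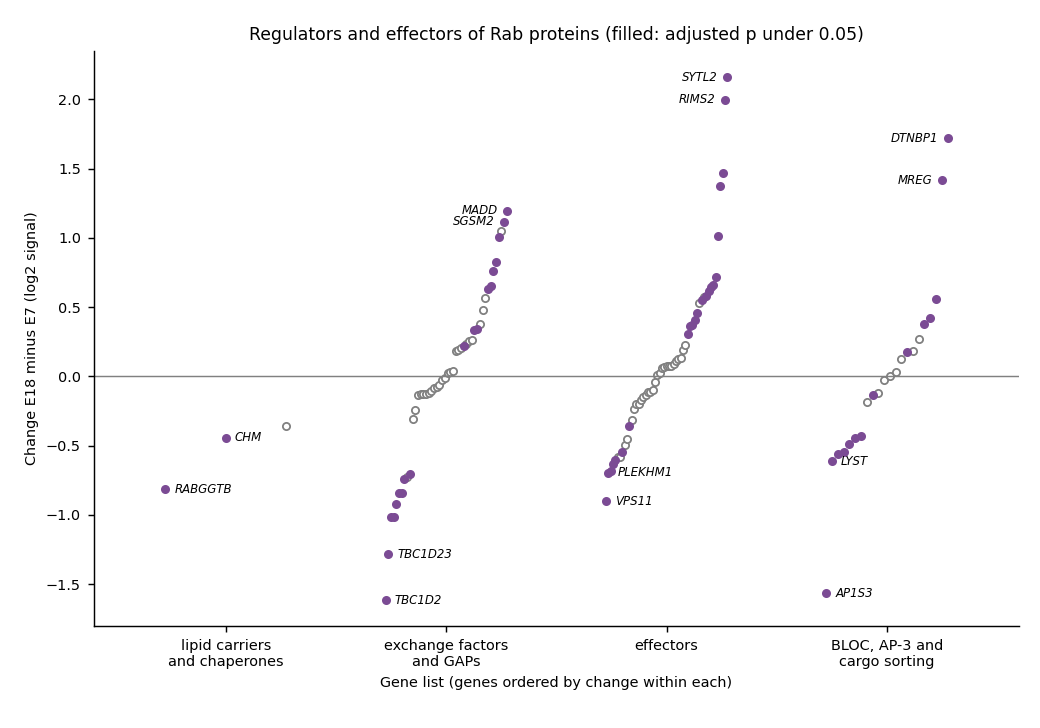
Change in log2 signal from E7 to E18 of the tested genes in 4 lists of Rab regulators and effectors, ordered within each list, with filled points for an adjusted p under 0.05 and names at the extremes. Among genes above the dim limit at both ages RIMS2 (2.00) and DTNBP1 (1.72) lie highest and TBC1D2 (-1.61) and AP1S3 (-1.57) lowest.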

How the data were processed

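Total RNA of 14 pooled RPE preparations was measured on 1-colour Affymetrix chicken arrays. The deposited table holds 1 linear intensity per probe set and array, and the mean after trimming each end was 500.1 on every array, so the authors had scaled the arrays alike. The summarising software is not given in the sources used here. The 9 deposited instrument files hold settings of other units and served only to name the arrays of the shared session and their fluidics stations. Intensities were quantile normalized as log2(intensity + 16), 96 control probe sets were removed, and the dimmest 40% by mean over all arrays (a signal of 57.5) were left out. All arrays were fitted with limma 3.58.1 in R 4.3.3 (lmFit, eBayes with trend, age as the only term), with a moderated F and 2-sided contrasts, adjusted by Benjamini-Hochberg over 23063 probe sets. The probe set with the highest mean signal stood for a gene and was chosen anew in each refit, so it can differ between fits. The chain was tested on simulated data. Figures were drawn with matplotlib 3.10.9.

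Values on every array are given for RAB27A, RAB38, RAB32 and RAB7A, for the 6 Rab genes with the smallest adjusted p in each direction between E7 and E18, and for the largest called change of each interval in each direction. RAB7L1, CHM, DTNBP1 and SOX10 were shown in more detail after their values were seen. The members and lists were chosen with earlier results of these data known. The labels do not say that a replicate number marks a shared preparation, and the arrays were fitted as unpaired. Over 19 pairs of same-numbered arrays the correlation of deviations from the age means ran from -0.229 to 0.154. Of these 2 were over 0.1 and 3 under -0.1. With so few arrays per age these values cannot exclude a shared preparation. The alternatives were the scalings, the pseudocount, the filter, the variance model, array weights, blocks, sessions, left-out arrays and the choice of probe set. The fit on the 5 arrays outside the shared session was chosen after the data were seen. The sequences of the probe sets and proteins were not used here.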

Additional observations from a re-analysis of the deposited data

Results flagged for a closer look

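Of 84 groups of 4 arrays (42 Rab genes at E7 and at E18), 2 held an array far from the others by Dixon's test, where chance flags about 1 in 20. RAB19 read 6.71 on E7 replicate 4 and 7.28 to 7.38 on the other E7 arrays, and its rise was called without that array. RAB7A read 14.46 on E18 replicate 4 and 14.57 to 14.58 on the other E18 arrays, and its rise was called without that array as well.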

How the results depend on the processing

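Of all 23 called Rab genes 8 kept their call under every alternative and every left-out array, as given above. The rule above gave 14 Rab genes on every array, most of them picked for a small adjusted p between E7 and E18. Their agreement on refitting was thus largely built in. For these 14, RAB7L1 not among them, the change from E7 to E18 was refitted. It kept its sign and its side of the threshold in 375 of 391 refits. It reversed for RAB27A on the deposited scale (0.12), after median centring (0.33), with the probe set of lowest signal (0.0071) and in the 5 arrays outside the shared session (0.080), and for RAB5A after median centring (0.17). Median centring, which moved the median change of all genes from -0.047 to 0.057, left 13 genes changed by F, 4 lower at E18 than E7, 1 changed from E7 to E10 and 3 from E14 to E18. Without a trend in eBayes 14 changed by F. With array weights 8 changed from E7 to E10 and 7 from E10 to E14. From E10 to E14 6 changed in the shared session, 6 without the 4 arrays that stood apart and 6 when the ages were fitted alone. Leaving out each array in turn gave 0 to 2 changed from E10 to E14, 4 to 8 from E14 to E18 (4 without E14 replicate 1, E14 replicate 2 or E18 replicate 2), 4 to 5 from E7 to E10, 15 to 21 by F, and 9 to 13 higher and 8 to 11 lower at E18 than E7. The replicate block gave 12 higher and 10 lower, 22 of them among the 23 calls without it, and 9 changed from E14 to E18. The share of all genes called was counted for only some of these settings, and only between E7 and E18. Counts of the other refits are thus no result about the Rab genes. The causes were not tested. Changes of a gene whose mean at E7 or E18 was under the dim limit have no exact size, and in the shared session E7 was a lone array.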
